A study of Homo sapiens with 9 samples.

Results

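The short arm of human chromosome 12 ends in a gene-dense stretch, band 12p13. It was examined in U2-OS osteosarcoma cells because many of its genes had lower read counts in clone A4 of the study than in the other clones. The interval was thus chosen by measured values, the differences of clone A4 from clone A1 and from vector. The members were the protein-coding genes of GENCODE release 44 (GRCh38) on chromosome 12 that start between 280000 and 12920000 and average at least 4 CPM (counts scaled by library size) over the 9 libraries, apart from TIGAR and NDUFA9, which the choice set aside. Of 184 protein-coding genes in that interval, 82 were members and 100 fell under the floor, 25 of these with no read in any library. The tables list 60609 genes, of which 10606 were protein-coding and over the same floor.

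U2-OS is an established osteosarcoma line with a heavily rearranged karyotype. Per the labels, the study has 2 clones, A1 and A4, made to overexpress NCBP2, which binds the RNA cap as part of the nuclear cap-binding complex. Each has 3 libraries, replicates A, B and C. The controls are 3 further clones obtained in the same manner with an empty vector; each gave 1 library, and these too carry the letters A, B and C. All cells grew in serum-containing medium, and the labels give no other treatment. Each NCBP2 group is therefore a single clone. Nothing says that the libraries of a clone were separate cultures, so the spread within clones A1 and A4 may be technical. Between the vector libraries the spread also holds differences between clones. The fit pooled both kinds of spread over the 3 groups. Its p-values and standard errors (SE) measure only the spread between these libraries. The question addressed here is how far, gene by gene, clone A4 differed from clone A1 and from the vector clones along the segment. The segment was picked because clone A4 was lower there, so for its members the differences of clone A4 are given as a description and without a test.

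Band 12p13 carries genes of unrelated function. It holds cyclin D2 (CCND2) and the kinase inhibitor p27 (CDKN1B), which act on the G1 phase of the cell cycle in opposite directions. It also holds the glycolytic enzymes GAPDH and TPI1, the chromatin remodeller CHD4, the Wnt co-receptor LRP6, the transcription factor ETV6, and clusters of lectin-like receptor and bitter taste receptor genes. Genes that only neighbour each other share no promoter as a rule, but some pairs are read in opposite directions from 1 stretch of DNA. Since 4 such windows carry neighbours described below, or the member at the start of a lower stretch, they are shown first.

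Promoter windows of 300 bases (250 before to 50 after the annotated start) came from RefSeq on GRCh38.p14, where 63 of the 82 members had a window. Capitals mark matches, on either strand, to CCAAT (the CCAAT box), GGGCGG (the GC box), CCGGAAGT (bound by ETS factors) or TATAAA (the TATA box), each motif counted on its own. The window of KDM5A lies at chr12:389271-389570 on the minus strand and shares 126 bases with that of CCDC77. The EMG1 window, at chr12:6970663-6970962 on the plus strand, shares 252 bases with that of PHB2. WNK1 starts within chr12:752329-752628 on the plus strand, and RAD51AP1 within chr12:4538640-4538939 on the plus strand.
KDM5A: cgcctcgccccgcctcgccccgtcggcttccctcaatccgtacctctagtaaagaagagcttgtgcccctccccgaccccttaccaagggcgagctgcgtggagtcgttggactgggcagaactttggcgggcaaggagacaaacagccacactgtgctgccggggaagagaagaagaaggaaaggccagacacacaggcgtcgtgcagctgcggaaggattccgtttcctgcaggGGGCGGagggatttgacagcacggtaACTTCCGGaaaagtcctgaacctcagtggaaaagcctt
EMG1: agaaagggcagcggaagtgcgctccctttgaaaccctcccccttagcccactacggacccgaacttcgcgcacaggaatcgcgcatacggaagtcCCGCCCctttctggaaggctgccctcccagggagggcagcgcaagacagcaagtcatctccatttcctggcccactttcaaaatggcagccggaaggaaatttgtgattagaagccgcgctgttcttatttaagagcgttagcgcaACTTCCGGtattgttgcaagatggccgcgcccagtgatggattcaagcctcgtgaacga
WNK1: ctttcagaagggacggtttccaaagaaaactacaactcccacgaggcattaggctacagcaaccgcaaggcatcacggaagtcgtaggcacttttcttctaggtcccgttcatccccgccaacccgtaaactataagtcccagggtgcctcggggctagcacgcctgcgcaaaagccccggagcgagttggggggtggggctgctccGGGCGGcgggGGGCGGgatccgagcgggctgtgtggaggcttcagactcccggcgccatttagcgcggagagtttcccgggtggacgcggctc
RAD51AP1: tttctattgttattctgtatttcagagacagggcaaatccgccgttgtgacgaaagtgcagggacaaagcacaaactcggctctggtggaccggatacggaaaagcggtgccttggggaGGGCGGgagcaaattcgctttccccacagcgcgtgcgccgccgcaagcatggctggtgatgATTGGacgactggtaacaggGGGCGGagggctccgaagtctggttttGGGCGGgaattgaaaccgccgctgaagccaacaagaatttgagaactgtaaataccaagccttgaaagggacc

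Of these motifs none was in all of the members' 88 windows. A GC box was found in 64.8% of them and in 45.0% of all 35116 windows. The CCAAT box was in 35.2% and 34.6%, the ETS motif in 11.4% and 4.14%, and the TATA box in 10.2% and 11.5%. The median count of CG dinucleotides was 21 in the members' windows and 14 in all windows, at a median GC content of 58.7% in both. All windows were not limited to protein-coding genes over the floor, as the members were, so these shares are not a like comparison. The 88 windows belong to 63 members, and some of them overlap. Whether the differences belong to the segment was not tested. A match of letters is a description and not a bound site.

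Counts on the strand of genes ranged from 29234022 to 50554080 per library, and NCBP2 was above the vector libraries in all 6 NCBP2 libraries, at 299 to 348 CPM in clone A1 and 456 to 1035 CPM in clone A4 against 90.6 to 98.4 CPM. Clone A1 replicate A stood apart, with correlations of log2 CPM to the other libraries, taken across genes, of at most 0.928, where the highest correlation of every other library was at least 0.959. Of 8 osteoblast and osteosarcoma markers, 7 were at 1 CPM or more in every library, with a summed level of 2241 to 4193 CPM. The 6 blood markers summed to at most 1.95 CPM, the 4 endothelial markers to at most 3.64 CPM, the 6 epithelial markers to 6.94 to 12.3 CPM and the 4 neural markers to 31.7 to 89.9 CPM. The neural sum was 31.7 to 63.1 CPM in clone A1, 61.5 to 75.9 CPM in clone A4 and 81.3 to 89.9 CPM in the vector libraries, and its part in the results was not tested.

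Clone A4 was lower than both comparison groups over most of the segment. Fold changes are log2 values from 1 fit over all genes and 9 libraries, so that -1 is a halving, and CPM values are scaled by library size. The median log2 difference over the 82 members was -0.69 for clone A4 minus clone A1, against 0.04 over all 21682 genes tested and -0.02 over the 516 protein-coding genes of the same floor on the rest of chromosome 12. It was -0.59 for clone A4 minus vector, against 0.03 and -0.03. For clone A1 minus vector it was 0.07, against -0.02 and -0.03. Clone A4 was the lower in 75 of the 82 members against clone A1, where 46.8% of all genes were lower, in 71 against vector, where 46.4% were, and in 67 against both. In bulk RNA a lower level in every cell and the loss of a transcript from some cells cannot be told apart, and DNA copy number was not measured.

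The libraries of clone A4 resembled each other. As the median over the members of log2 CPM minus the mean of the 9 libraries, clone A4 stood at -0.47, -0.43 and -0.35 in replicates A, B and C. Clone A1 stood at 0.13, 0.37 and 0.36 and the vector libraries at 0.15, 0.35 and 0.13 in the same order, so that all 3 clone A4 libraries were below the other 6. Over the rest of chromosome 12 the same medians ran from -0.07 in clone A4 replicate C to 0.06 in vector replicate C. Members made up 0.518%, 0.537% and 0.611% of the summed CPM of tested genes in clone A4, 0.727% to 0.931% in clone A1 and 0.760% to 0.931% in the vector libraries.

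All 3 clone A4 libraries lay below all 6 others for 35 of the 82 members, or 42.7%, where the same held for 1.44% of all genes tested. The genes tested include genes under the members' floor, and the share over that floor was not computed. Against clone A1 alone the groups did not overlap, with clone A4 below, for 43 members (5.72% of all genes), and against vector alone for 45 (5.86% of all genes). Without clone A1 replicate A, clone A4 lay below all other libraries for 43 members on the same CPM values. The share of all genes was not computed without that library, and the 1.44% does not apply to this count.

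**Figure D1:**
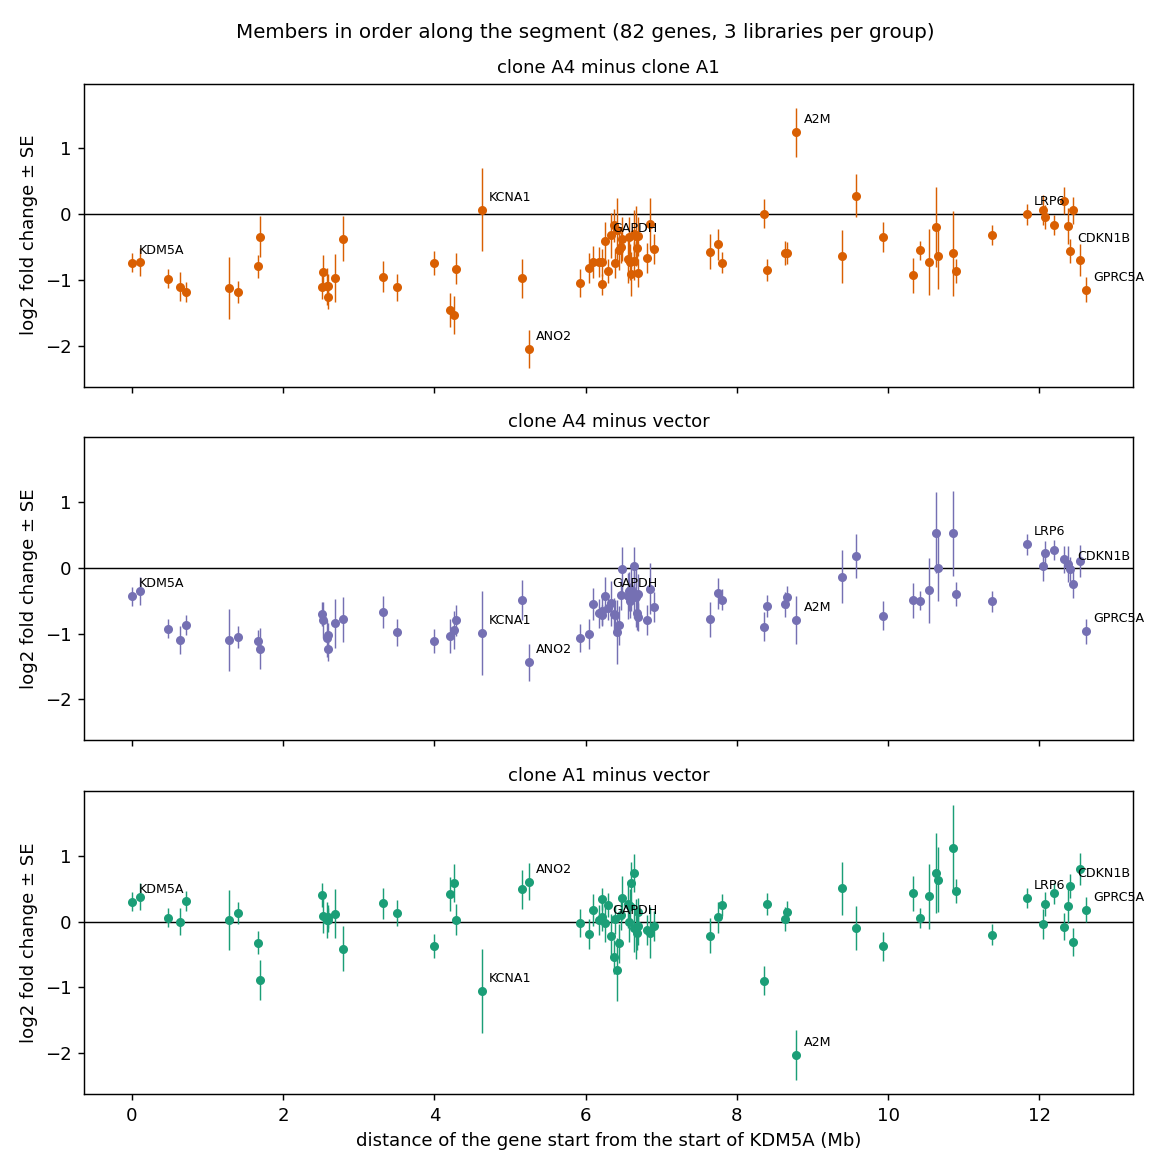
Log2 fold change with its standard error for each of the 82 members (points), by the distance of the gene start from that of KDM5A in megabases, in 3 panels for clone A4 minus clone A1, clone A4 minus vector and clone A1 minus vector. In both upper panels most points lie below 0, lowest on the left (WNK1 to CD9, medians -1.07 and -1.005) and near 0 from LRP6 on, with GPRC5A at -1.15 and -0.97 at the right end.

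Along the chromosome the difference was not even. The members fell into stretches, delimited after their values were seen, and so without a test. KDM5A and CCDC77, the outermost members, were at -0.74 and -0.73 against clone A1. The next 24 members, from WNK1 (start 752579) to CD9 (start 6199715), had a median of -1.07 against clone A1 and -1.005 against vector. In the 46 members from TNFRSF1A (start 6328757) to ETV6 (start 11649674) the medians were -0.58 and -0.50. From LRP6 (start 12116025) to DDX47 (start 12813316) they were -0.04 and 0.11 over 9 members, and GPRC5A, the last member, was at -1.15 and -0.97. By these medians the name of a segment lower in clone A4 does not hold for the 9 members from LRP6 to DDX47. Of these, 6 were below 0 against clone A1 and 2 against vector. For 3 of them all clone A4 libraries lay below all clone A1 libraries, as for 5.72% of all genes, and for 0 below all vector libraries. The median of clone A1 minus vector there was 0.27. None of these 9 had all clone A4 libraries below the other 6. That separation held for 17 of the 24 from WNK1 to CD9 and 16 of the 46 from TNFRSF1A to ETV6. Over all genes tested it held for 1.44%.

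The same order was seen in bins of fixed width. In 2-Mb bins of gene starts, the median difference of clone A4 from clone A1 was -0.98, -1.09 and -0.98 in the first 3 bins, with 9, 9 and 7 members. It was -0.57, -0.59 and -0.60 in the next 3, with 29, 9 and 9 members, and -0.10 in the last, with 10 members. Against vector the medians were -1.06, -0.85, -0.99, -0.60, -0.48, -0.40 and 0.08 from the first bin to the last. Clone A1 replicate A differed from its clone in some bins. In the bin from CD9 to SLC2A3 it stood at -0.24 against 0.41 and 0.46 in replicates B and C. There clone A4 lay below all of clone A1 for 12 of the 29 members with clone A1 replicate A, where this held for 5.72% of all genes. Without that replicate the count was 24. The share of all genes without clone A1 replicate A was not computed. In the bin from GABARAPL1 to ETV6 clone A1 replicate A stood at 0.83, against 0.25 and -0.04 in replicates B and C, and vector replicate B stood at -0.66.

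**Figure D2:**
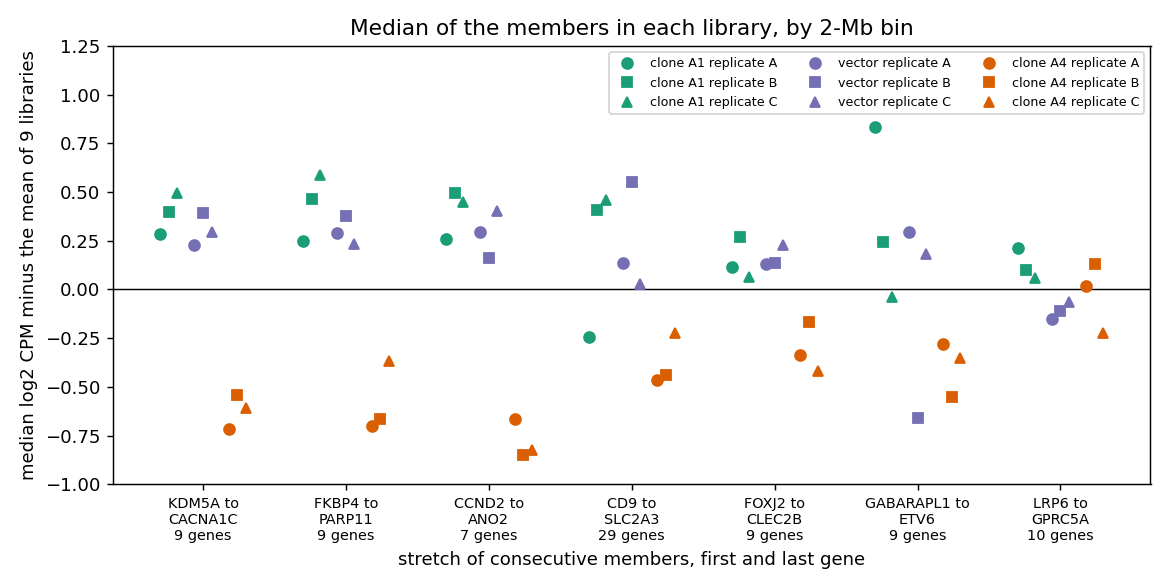
Median over the members of each 2-Mb bin of log2 CPM minus the mean of the 9 libraries, per library (circles, squares and triangles for replicates A, B and C; colours for the groups). The 3 clone A4 libraries lie below the other 6 in the first 3 bins, where they run from -0.85 to -0.37, and mix with the others in the last bin.

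A running median over 15 consecutive protein-coding genes of the same floor, TIGAR and NDUFA9 included, put the segment beside the rest of chromosome 12. Inside the segment it reached -1.10 for clone A4 minus clone A1 and -1.06 for clone A4 minus vector. In the 501 windows wholly beyond it, it ran from -0.32 to 0.35 and from -0.15 to 0.15. The running median of clone A1 minus vector ran from -0.31 to 0.33 in those windows. In windows centred inside the segment it ran from -0.06, around LPCAT3, to 0.39, around TAS2R14.

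**Figure D3:**
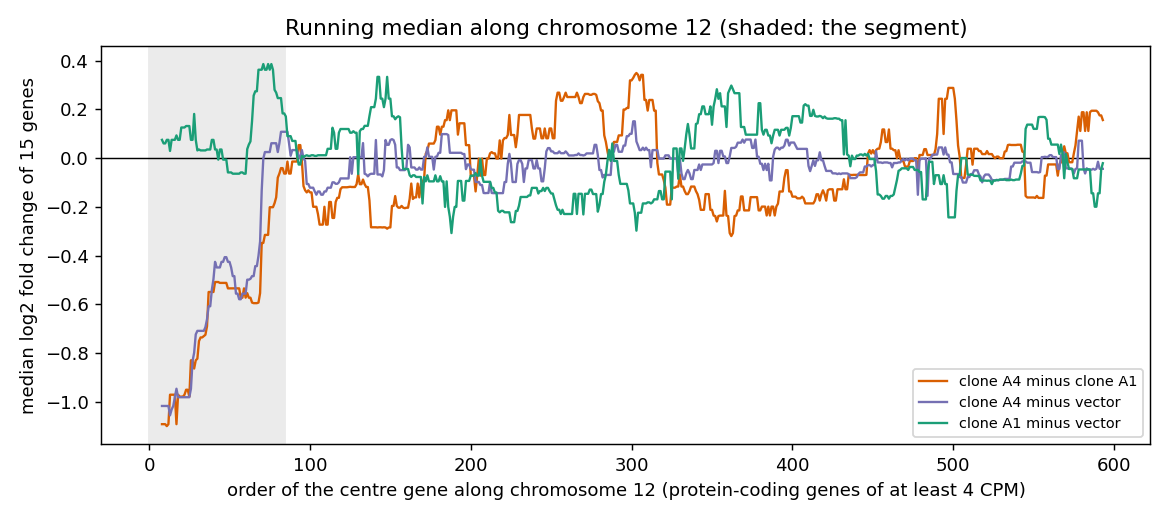
Median log2 fold change of 15 consecutive protein-coding genes (vertical axis) by the order of the centre gene along chromosome 12 (horizontal axis), with the segment shaded. Both lines for clone A4 are near -1 at the left and rise in steps towards 0 within the shaded part. The line for clone A1 minus vector stays between -0.31 and 0.33 beyond the segment and reaches 0.39 within it, around TAS2R14.

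The ends of the interval were looked at next. KDM5A, a demethylase of histone H3 lysine 4 (ENSG00000073614.13, 280057 to 389320, minus strand), measured 91.6, 90.9 and 88.0 CPM in clone A4 (its replicates A, B and C, the order used for every group), 152, 156 and 143 CPM in clone A1 and 118, 117 and 131 CPM in the vector libraries. The 3 groups did not overlap, with clone A4 lowest and clone A1 highest. CCDC77, a coiled-coil protein gene read from the shared window shown above, measured 18.3, 17.4 and 18.9 CPM in clone A4, 30.3, 26.8 and 33.5 CPM in clone A1 and 24.5, 17.7 and 27.3 CPM in the vector libraries. Clone A4 was below clone A1 throughout, and vector replicate B overlapped with clone A4. No protein-coding gene over the floor lay before KDM5A.

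At the other end, APOLD1 measured 22.6, 22.5 and 16.9 CPM in clone A4, 23.0, 18.9 and 17.8 CPM in clone A1 and 25.5, 21.1 and 27.1 CPM in the vector libraries, and the groups overlapped. DDX47, an RNA helicase of ribosome assembly whose annotation overlaps that of APOLD1 on the same strand, measured 14.3, 18.0 and 11.4 CPM in clone A4, 29.4, 20.2 and 21.1 CPM in clone A1 and 13.9, 12.1 and 14.6 CPM in the vector libraries. Here clone A1 was the group that stood out, above both others. GPRC5A, an orphan G protein-coupled receptor (ENSG00000013588.9, 12891559 to 12917937, plus strand), measured 87.0, 84.2 and 118 CPM in clone A4, 169.9, 236 and 237 CPM in clone A1 and 183, 208 and 175 CPM in the vector libraries. All clone A4 values were below the rest. Beyond the interval the next 3 genes over the floor differed little between clone A4 and clone A1, with log2 differences of -0.06 (SE 0.196) for HEBP1, -0.08 (SE 0.210) for FAM234B and 0.05 (SE 0.214) for EMP1. Against vector they were 0.22, 0.01 and -0.31. At the floor of 4 CPM, LRRC23 (4.19 CPM) and TAS2R13 (4.72 CPM) were just inside, and TAS2R20 (3.95 CPM) and TAS2R31 (3.57 CPM) just outside.

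The list of cell cycle and DNA repair genes, which also held FKBP4, ITFG2 and TULP3, had 10 genes, all of them members. Their median was -0.99 against clone A1 and -0.87 against vector, and all 10 were below 0 in both. CCND2, FOXM1, RAD51AP1, RAD52, FKBP4, ITFG2 and TULP3 lie in the stretch from WNK1 to CD9. The median over the 24 members of that stretch was -1.07 against clone A1 and -1.005 against vector. Whether function played a part apart from position was not tested. CCND2, cyclin D2, which activates CDK4 and CDK6 (ENSG00000118971.9, 4269771 to 4305353, plus strand), measured 413, 565 and 337 CPM in clone A4, 708, 778 and 724 CPM in clone A1 and 904, 1042 and 899 CPM in the vector libraries. The groups did not overlap, and clone A4 had 0.595 of the mean of clone A1 and 0.462 of that of the vector libraries. FOXM1, a transcription factor of mitotic genes, measured 123, 114 and 209 CPM in clone A4, 203, 332 and 423 CPM in clone A1 and 293, 368 and 278 CPM in the vector libraries. Clone A4 was below vector throughout, while its replicate C was just above clone A1 replicate A.

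Next to FOXM1, and read in the opposite direction, RHNO1 encodes a cofactor of the replication checkpoint. It measured 50.5, 65.2 and 42.6 CPM in clone A4, 119.7, 119 and 140.2 CPM in clone A1 and 118, 122 and 131 CPM in the vector libraries, and the log2 difference was -1.26 (SE 0.182) from clone A1 and -1.23 (SE 0.182) from vector. FOXM1 was at -1.10 (SE 0.282) and -1.07 (SE 0.281). RHNO1 overlaps TULP3, a gene of cilium trafficking, on the same strand, so reads could be split between them, and TULP3 was at -1.09 and -1.02.

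RAD51AP1, a gene of DNA repair, measured 38.9, 29.6 and 38.5 CPM in clone A4, 126, 86.7 and 97.3 CPM in clone A1 and 82.3, 37.4 and 86.4 CPM in the vector libraries. Clone A4 was below clone A1 throughout, and vector replicate B lay within its range. C12orf4, which starts 290 bases from RAD51AP1 on the other strand, measured 24.6, 20.6 and 22.0 CPM in clone A4, 78.8, 52.6 and 53.3 CPM in clone A1 and 56.8, 29.0 and 51.6 CPM in the vector libraries. Both genes were low in vector replicate B, and their differences from clone A1 were -1.54 (SE 0.288) and -1.46 (SE 0.261). RAD52, a recombination mediator, measured 10.8, 9.60 and 9.09 CPM in clone A4, 19.8, 18.6 and 24.9 CPM in clone A1 and 19.1, 20.1 and 24.1 CPM in the vector libraries, again with clone A4 apart from the rest.

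NCAPD2, a condensin I subunit, measured 171, 166 and 214.2 CPM in clone A4, 214.3, 329 and 375 CPM in clone A1 and 283, 334 and 255 CPM in the vector libraries. Clone A4 was the lowest group, though its replicate C and clone A1 replicate A were nearly equal. CDKN1B, the gene of p27, lies in the stretch from LRP6 to DDX47 and measured 134, 163 and 115 CPM in clone A4, 237, 195 and 175 CPM in clone A1 and 157, 127 and 133 CPM in the vector libraries. Clone A4 was below clone A1 and overlapped with vector, at log2 differences of -0.56 (SE 0.182) and -0.02 (SE 0.181).

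**Figure D4:**
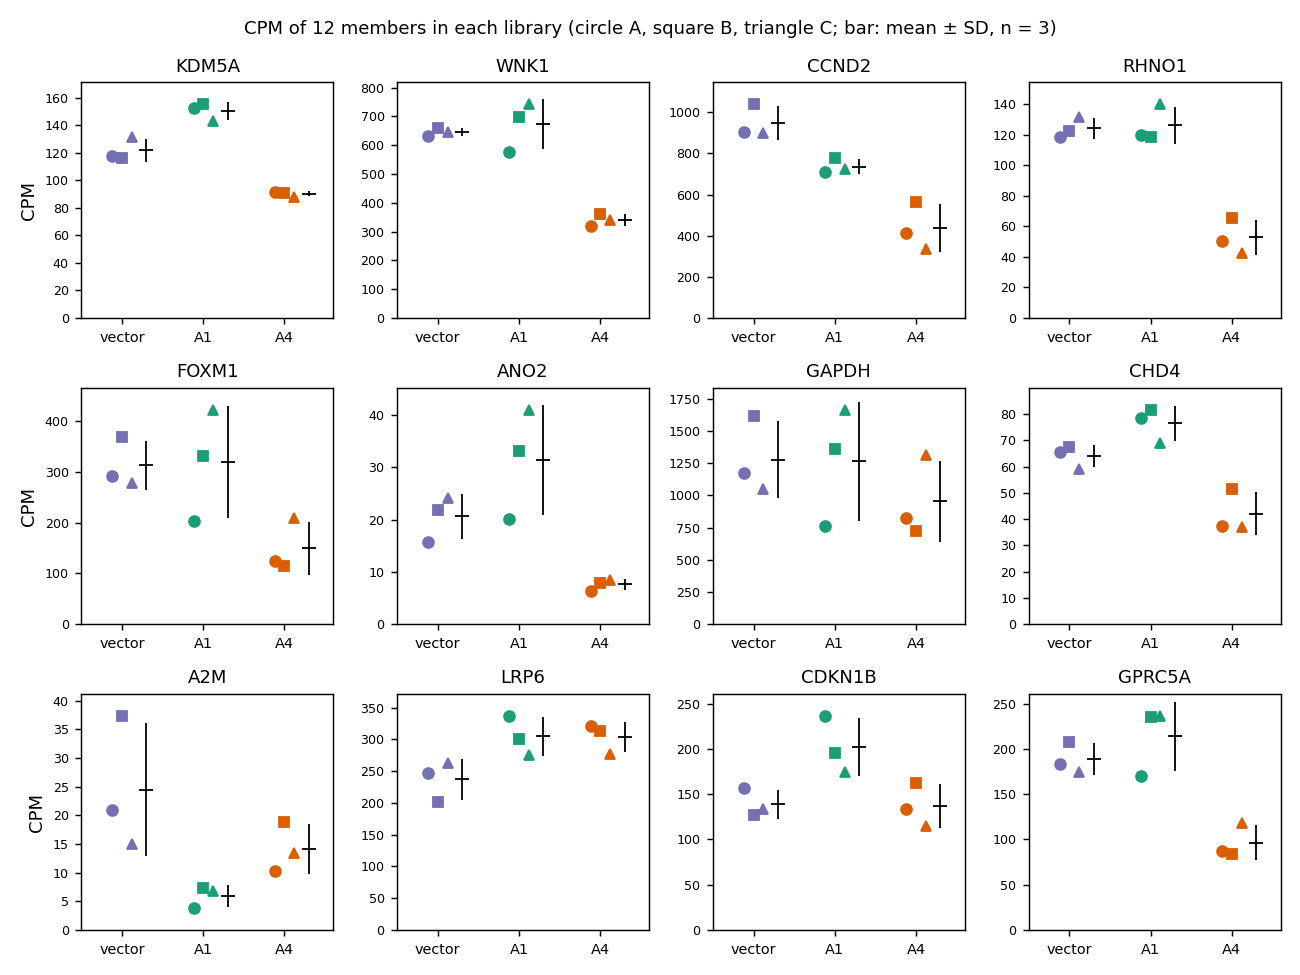
CPM of 12 members in each library (vertical axes from 0; circles, squares and triangles for replicates A, B and C; bars for mean ± SD, n = 3). WNK1, CCND2, RHNO1, ANO2 and GPRC5A show clone A4 below all other libraries, whereas LRP6 is alike in clones A1 and A4, at 276 to 338 CPM, and A2M is lowest in clone A1.

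The list of receptors, kinases and phosphatases, which also held CD9 and PTMS, had a median of -0.78 against clone A1. It ranged from -1.15, for GPRC5A described above, to LRP6, at a difference under 0.01 in size. WNK1, a kinase that controls chloride cotransporters (ENSG00000060237.19, 752579 to 911452, plus strand), measured 321, 362 and 339 CPM in clone A4, 578, 698 and 744 CPM in clone A1 and 630.4, 660.5 and 647 CPM in the vector libraries. Clone A4 had 0.506 of the mean of clone A1 and 0.528 of that of the vector libraries, with no overlap. ADIPOR2, an adiponectin receptor, measured 75.2, 95.7 and 68.7 CPM in clone A4, 172, 189 and 184 CPM in clone A1 and 168, 184 and 147 CPM in the vector libraries. CD9, a tetraspanin of the cell surface, measured 58.9, 88.5 and 58.4 CPM in clone A4, 137, 157 and 130.4 CPM in clone A1 and 133, 179.9 and 117 CPM in the vector libraries. For both genes clone A4 lay below every other library.

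LRP6, a co-receptor for Wnt ligands (ENSG00000070018.9, 12116025 to 12267044, minus strand), measured 321, 313 and 277 CPM in clone A4, 338, 300.4 and 276 CPM in clone A1 and 247, 201 and 263 CPM in the vector libraries. The NCBP2 clones overlapped, and both lay above the vector libraries. DUSP16, a phosphatase of JNK and p38 kinases, measured 69.7, 75.9 and 67.4 CPM in clone A4, 79.0, 83.1 and 76.0 CPM in clone A1 and 63.0, 60.6 and 53.0 CPM in the vector libraries. LRP6 and DUSP16 were the 2 members with all clone A4 libraries above all vector libraries, which held for 6.2% of all genes. Of the 8 members on the list of receptors, kinases and phosphatases, all 8 were below 0 against clone A1 and 6 against vector.

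The 4 members of glucose use had a median of -0.65 against clone A1 and -0.46 against vector. GAPDH, the glycolytic enzyme often taken as a reference gene (ENSG00000111640.15, 6534512 to 6538374, plus strand), measured 825, 727 and 1313 CPM in clone A4, 763, 1364 and 1668 CPM in clone A1 and 1176, 1615 and 1047 CPM in the vector libraries. All groups overlapped, and the log2 difference of clone A4 was -0.41 (SE 0.290) from clone A1 and -0.42 (SE 0.290) from vector. Without clone A4 replicate C the first was -0.72, and without clone A1 replicate C it was -0.15. GAPDH has many near-identical pseudogenes, so its counts are uncertain where reads match several copies. Per kilobase of exon, it had the highest level of the members, 487 CPM, ahead of CCND2 at 88.6 and TPI1 at 61.0.

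TPI1, triosephosphate isomerase, measured 109, 107 and 149 CPM in clone A4, 118, 234 and 252 CPM in clone A1 and 158, 213 and 143 CPM in the vector libraries, with overlaps. SLC2A3, the glucose transporter GLUT3, measured 34.8, 47.4 and 31.9 CPM in clone A4, 49.6, 66.8 and 53.3 CPM in clone A1 and 48.4, 94.9994 and 52.8 CPM in the vector libraries, with clone A4 below the rest. ENO2, an enolase, was at -0.72 against clone A1 and 0.02 against vector. All 4 members of this group were below 0 against clone A1 and 3 against vector.

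Chromatin regulators had medians of -0.59 against clone A1 and -0.56 against vector, and transcription factors of -0.51 and -0.50. CHD4, the remodelling ATPase of the NuRD complex, measured 37.5, 51.5 and 37.1 CPM in clone A4, 78.6, 81.7 and 69.2 CPM in clone A1 and 65.5, 67.4 and 59.3 CPM in the vector libraries, and no groups overlapped. PHC1, a Polycomb protein, measured 26.7, 33.8 and 27.1 CPM in clone A4, 40.6, 51.9 and 39.6 CPM in clone A1 and 41.4, 43.0 and 44.4 CPM in the vector libraries, with clone A4 alone lower. ATN1, the transcriptional co-repressor atrophin, measured 59.1, 51.0 and 117 CPM in clone A4, 51.9, 102 and 126 CPM in clone A1 and 89.9, 134 and 74.9 CPM in the vector libraries, and all groups overlapped. All 5 chromatin members were below 0 in both comparisons.

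ETV6, an ETS family repressor, was the last member before the stretch with little difference. It measured 141, 161 and 126 CPM in clone A4, 171, 194 and 169 CPM in clone A1 and 192, 222 and 195 CPM in the vector libraries. Clone A4 lay below all other libraries, at 0.804 of the mean of clone A1. YBX3, a cold-shock domain protein that binds RNA and DNA, measured 172, 198 and 212 CPM in clone A4, 284, 271 and 299.6 CPM in clone A1 and 248, 293 and 281 CPM in the vector libraries, without overlap of clone A4. FOXJ2, a forkhead factor, measured 74.1, 124 and 89.8 CPM in clone A4, 103, 154 and 138 CPM in clone A1 and 103, 161 and 113 CPM in the vector libraries, and clone A4 replicate B overlapped with both other groups. Of the 7 transcription factors, 6 were below 0 against clone A1, and CREBL2 was at 0.20 (SE 0.206).

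The list of RNA and ribosome biogenesis genes, which also held PHB2, included the pair from 1 shared window. EMG1, a methyltransferase of 18S ribosomal RNA, measured 10.3, 16.1 and 15.7 CPM in clone A4, 24.6, 25.9 and 27.6 CPM in clone A1 and 22.1, 24.7 and 23.7 CPM in the vector libraries. PHB2, a prohibitin of the inner mitochondrial membrane, measured 34.6, 39.9 and 45.2 CPM in clone A4, 35.1, 63.8 and 71.9 CPM in clone A1 and 60.6, 79.9 and 52.0 CPM in the vector libraries. Clone A4 lay below all libraries for EMG1, and for PHB2 clone A1 replicate A lay within its range. The log2 differences from vector were -0.74 (SE 0.214) for EMG1 and -0.68 (SE 0.261) for PHB2, and for the other pair with a shared window -0.43 (SE 0.141) for KDM5A and -0.35 (SE 0.208) for CCDC77. MRPL51, a protein of the mitochondrial ribosome, measured 33.9, 39.5 and 32.9 CPM in clone A4, 74.1, 66.6 and 82.5 CPM in clone A1 and 59.4, 57.1 and 58.9 CPM in the vector libraries, and none of the 3 groups overlapped.

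On the list of trafficking, ubiquitin and autophagy genes, which also held LPCAT3, 9 of 9 members were below 0 in both comparisons. ERC1, a scaffold of the cell cortex and of secretory vesicle sites, measured 105, 112 and 116 CPM in clone A4, 232, 264 and 260.4 CPM in clone A1 and 179, 233 and 194 CPM in the vector libraries. M6PR, a receptor that sorts lysosomal enzymes, measured 138, 150.2 and 106 CPM in clone A4, 179.8, 202 and 213 CPM in clone A1 and 184, 180.2 and 171 CPM in the vector libraries. NECAP1, of clathrin-coated vesicles, measured 36.9, 46.2 and 41.1 CPM in clone A4, 65.8, 66.1 and 75.7 CPM in clone A1 and 56.1, 60.2 and 57.5 CPM in the vector libraries. Clone A4 was the lowest group for all 3 genes, and ERC1, near the outer end, had the lowest share of clone A1 of the 3, at 0.441 against 0.662 and 0.599.

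Complement, protease inhibitor and lectin genes went their own ways. C1RL, a protease related to complement C1r, measured 21.2, 21.6 and 16.1 CPM in clone A4, 28.6, 39.6 and 25.7 CPM in clone A1 and 30.9, 41.1 and 30.4 CPM in the vector libraries, with clone A4 lowest. A2M, the protease inhibitor alpha-2-macroglobulin, measured 10.3, 18.8 and 13.3 CPM in clone A4, 3.77, 7.23 and 6.84 CPM in clone A1 and 20.9, 37.4 and 14.96 CPM in the vector libraries. It was the 1 member with all clone A4 libraries above all clone A1 libraries (7.92% of all genes), and clone A1 was the lowest of the groups. CLEC2B, a C-type lectin, measured 23.9, 12.9 and 16.5 CPM in clone A4, 16.8, 13.6 and 13.5 CPM in clone A1 and 19.5, 8.29 and 19.2 CPM in the vector libraries, and the groups overlapped. C1R and C1S, at 2.57 and 1.32 CPM, were under the floor.

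The member with the lowest value was ANO2, a calcium-activated chloride channel (ENSG00000047617.17, 5531869 to 5946232, minus strand). It measured 6.40, 7.94 and 8.49 CPM in clone A4, 20.2, 33.2 and 41.1 CPM in clone A1 and 15.7, 21.9 and 24.2 CPM in the vector libraries, with log2 differences of -2.05 (SE 0.287) and -1.44 (SE 0.282). Among the highest, KCNA1, a potassium channel, measured 18.0, 59.9 and 13.3 CPM in clone A4, 27.9, 48.5 and 10.8 CPM in clone A1 and 33.5, 110.1 and 38.0 CPM in the vector libraries. Replicate B was the highest library of each group, and the SE of 0.630 was among the widest. MFAP5, a microfibril protein, measured 40.9, 55.9 and 31.2 CPM in clone A4, 49.5, 41.1 and 36.9 CPM in clone A1 and 71.9, 77.7 and 88.1 CPM in the vector libraries, so both NCBP2 clones lay below vector; it is named after its values were seen. MANSC1 was at 0.06 (SE 0.231) against clone A1 and 0.02 (SE 0.230) against vector.

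The median difference from clone A1 varied little with level. Those under 20 CPM on average had a median difference from clone A1 of -0.64 (28 members), those from 20 to 100 CPM -0.59 (31) and those over 100 CPM -0.75 (23). The median SE narrowed from 0.319 through 0.225 to 0.182. Clone A4 lay below all other libraries for 7 of 28, 12 of 31 and 16 of 23 members, so this separation was more frequent at higher level. It held for 1.44% of all genes tested, and that share was not computed by level. The bitter taste receptor genes TAS2R13, TAS2R14 and TAS2R30 lie within PRH1 on the same strand, and 14 members in all overlap another protein-coding gene on their strand, so their counts depend on how reads were divided.

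TIGAR and NDUFA9, the genes set aside, lie in the same stretch. TIGAR, a phosphatase that restrains glycolysis, measured 41.5, 44.3 and 32.9 CPM in clone A4, 81.9, 57.1 and 64.3 CPM in clone A1 and 115, 83.1 and 109 CPM in the vector libraries. NDUFA9, a subunit of respiratory complex I, measured 12.5, 15.4 and 9.58 CPM in clone A4, 32.5, 24.95 and 29.4 CPM in clone A1 and 19.95, 22.8 and 23.9 CPM in the vector libraries. Clone A4 lay below all other libraries for both.

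Genes of the interval that were not members were looked at as well. Of its long noncoding RNAs, 42 could be tested, with a median of -0.65 against clone A1 and -0.54 against vector, and 30 and 33 of them were below 0. The 37 protein-coding genes under the floor that could be tested had medians of -0.24 and -0.40. The 34 genes of other classes, such as pseudogenes, had medians of -0.59 and -0.15, with 25 and 19 below 0. KLRK1-AS1 measured 5.96, 6.87 and 7.52 CPM in clone A4, 18.8, 21.2 and 16.1 CPM in clone A1, and 23.5, 17.0 and 19.6 CPM in the vector libraries, with no overlap of clone A4; it is named after its values were seen.

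Clone A1 against vector, the comparison without clone A4, was tested. Its libraries also entered the 2 differences that picked the interval. The p-values and shares of members below are therefore not independent of that choice. None of the 82 members passed an adjusted p of 0.05 by edgeR, where 0.0646% of all genes did (0.0277% lower and 0.0369% higher). At an unadjusted p under 0.05 there were 11 members (13.4%), where 7.51% of all genes were. DESeq2 called 2 members, but it also called more genes than edgeR over the whole set, as given under the processing alternatives. All clone A1 libraries lay above all vector libraries for 13 members, or 15.9% against 6.18% of all genes, and below them for 6, or 7.32% against 8.06%. The lowest adjusted p was that of A2M, at 0.104 by edgeR with a log2 fold change of -2.03 (SE 0.381). MFAP5 followed with -0.90 (SE 0.222, edgeR adjusted p 0.249) and DDX47 with 0.80 (SE 0.242, edgeR adjusted p 0.357).

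Genes elsewhere in the genome that work with members were tested for clone A4 against clone A1, from 9 lists of complexes and pathways. Of 125 listed genes 119 could be tested, and 0 passed an adjusted p of 0.05 by edgeR in either direction, where 0.161% of all genes did. At an unadjusted p under 0.05 there were 9, where 6.63% of all genes were, and DESeq2 called 0. Their median log2 difference was 0.02. The other 4 condensin I subunits, at -0.50 (SMC4) to -0.30 (NCAPH), had a median of -0.39 against clone A1, where NCAPD2 was at -0.74, and of 0.24 against vector, where NCAPD2 was at -0.66. For the 13 NuRD partners of CHD4 the medians against clone A1 and vector were -0.05 and -0.08, for 16 glycolytic and glucose transport genes 0.03 and 0.23, for 14 G1 cyclin and inhibitor genes 0.09 and -0.06 and for 16 mitotic targets of FOXM1 -0.18 and -0.04. CCND1, cyclin D1, was at 0.41 (SE 0.186, edgeR adjusted p 0.749) and CDKN1A, the gene of p21, at 0.61 (SE 0.226, edgeR adjusted p 0.591), both named after their values were seen. For 19 Wnt pathway genes the median was 0.05 against clone A1 and under 0.01 in size against vector. It was 0.17 and -0.12 for 17 genes of tumour necrosis factor and lymphotoxin receptor signalling and 0.16 and 0.02 for 10 Polycomb partners of PHC1. For 10 complement genes it was 1.03 and -0.13, with 9 of 10 above 0 against clone A1. Against vector the median of the 119 genes was under 0.01 in size, 0 passed by edgeR, where 0.115% of all genes did, and 3 were at an unadjusted p under 0.05, where 5.25% of all genes were.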

How the data were processed

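RNA was measured in 9 U2-OS libraries made after removal of ribosomal RNA, per the labels' protocols; the labels' molecule field names polyadenylated RNA instead. The authors deposited raw read counts per gene, made with STAR 2.7.1a on GRCh38 per the submitters' processing notes; the annotation is not given in the sources used here. Column 3 of the deposited counts, the strand that held most counts, was used, and column 4 held 5.51% to 6.42% of stranded counts. Summary lines, 4 per library and without a gene (44.5% to 63.6% of reads), were left out. Of 60609 identifiers, 60295 matched GENCODE release 44.

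Counts were fitted in edgeR 4.0.16 (R 4.3.3) with its quasi-likelihood model (filterByExpr, TMM, robust) with 3 groups over 9 libraries and Benjamini-Hochberg adjustment over 21682 genes at 0.05; SE is the log2 fold change over the root of F. CPM use TMM-scaled library sizes, apart from the floor and the cell type markers, which use plain totals. DESeq2 1.42.0 was an alternative. No libraries of a group agreed within sampling noise, at a chi-square per degree of freedom of at least 29.8. The counts' totals limit the precision for counting error only.

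The members, gene lists and tests were chosen with earlier results of these data known. Named are, per list of roles, members with high mean CPM, and the members with the 5 lowest and 5 highest differences from clone A1. Both ends of the interval and the genes set aside are named too. Other members named beside them (such as RAD52, TULP3, PHC1 and DUSP16) were added after their values were seen. Motifs were searched as exact letters in RefSeq windows.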

Additional observations from a re-analysis of the deposited data

Results flagged for a closer look

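For 6 members, all clone A4 libraries lay below and all clone A1 libraries above all vector libraries. The NCBP2 clones thus lay on opposite sides of vector. The same kind of separation, in either direction, was seen for 68 of 21682 genes (0.314%). The log2 difference of clone A4 from clone A1 was -0.74 for KDM5A, -1.10 for FKBP4, -1.07 for MRPL51, -0.86 for CHD4, -0.74 for NECAP1 and -0.86 for SMIM10L1. The differences of clone A4 from clone A1 and from vector picked the segment, so neither was tested. A higher share among the members follows in part from that choice.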

How the results depend on the processing

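The median over members kept its sign under all 15 alternatives, from -0.75 to -0.65 for clone A4 minus clone A1, from -0.69 (without clone A4 replicate C) to -0.49 (without vector replicate B) for clone A4 minus vector, and from 0.03 to 0.20 for clone A1 minus vector. By stretch, chosen after seeing the data, leaving out 1 library gave -1.12 to -0.93 against clone A1 and -1.03 to -0.93 against vector from WNK1 to CD9, and -0.14 to 0.04 and -0.089 (without clone A4 replicate B) to 0.24 from LRP6 to DDX47, where the sign turned. Clone A4 lay below all other libraries for 33 to 42 members over 11 alternatives, under which the share of all genes was not computed. Under any alternative 0 partner genes were called.

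Counts of calls moved more. Over all genes, edgeR called 14 for clone A1 against vector, 35 for clone A4 against clone A1 and 25 for clone A4 against vector. DESeq2 called 274, 246 and 185, and without a filter on low counts the numbers were 312, 231 and 163. With 1 library left out they ran from 3 to 14, 10 to 56 and 7 to 41, and with only the 6 libraries compared the first was 7. Members called in clone A1 against vector were 2 by DESeq2 and 3 without the filter, and 0 with any 1 library left out.

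Correlations of deviations between libraries of different groups ran from -0.102 to 0.180 for the same replicate letter and from -0.271 to 0.221 for different letters. Whether a letter marks a shared effect was not tested. With the replicate block, 38 genes were called for clone A1 against vector, against 14 without it, and 53 for clone A4 against vector, against 25. In clone A1 against vector 1 member was called with the block, and 17 members were at an unadjusted p under 0.05, against 11. The share of all genes at that unadjusted p was not computed with the block.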
